A study of Mus musculus with 10 samples.

Results

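The interferon-stimulated genes described here are 41 mouse genes that cells switch on when an interferon reaches them, and their reads were compared between young ovaries, aged ovaries and aged ovaries after CEFFE. They were taken from the deposited table by gene symbol, as 41 of its 55487 genes, and all 41 were among the 18956 genes with enough reads to be tested by edgeR. Whole ovaries of C57BL/6J mice were sequenced, 1 library an ovary, with 4 animals of 8 weeks (Control), 3 older animals (Aged) and 3 older animals given CEFFE (Aged+CF). By the labels, animals of both older groups were at 11 months, while the methods of the study give 10 months. Aged+CF mice had received CEFFE, a cell-free protein extract of fat tissue, into the tail vein (200 μL at 3 μg/μL every 2 days for 2 weeks), and the other mice had received saline. All mice of the 3 groups carried the same hormone priming, 10 IU of PMSG (a gonadotropin that drives follicle growth) 48 h before the ovaries were taken. Ovaries are named here by group and by the number in their title, and the same number in different groups marks different animals.

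Interferons are secreted proteins that warn cells of viruses and of misplaced nucleic acid. Type I interferons bind the receptor pair IFNAR1 and IFNAR2, the kinases JAK1 and TYK2 then pass the signal on, and STAT2 and IRF9 act in a complex that binds a DNA element called ISRE in front of its target genes. Interferon gamma, made mainly by T cells and natural killer cells, signals through IFNGR1 and IFNGR2 and acts on its targets through another element, called GAS. The products of the target genes block viral replication, break down foreign RNA, present antigen, or feed back on the signal itself, and many of them are kept at a low level in healthy tissue. In the ovary, granulosa and stromal cells as well as the macrophages among them can respond to interferon.

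The promoter letters of the genes were looked at first, because they can be shared by genes of different function. The letters themselves were not used to choose the genes. The genes were listed as interferon targets, however, so a high share with ISRE letters follows in part from that choice. Near copies, such as Ifit3 and Ifit3b, were counted separately. RefSeq promoter windows of GRCm38.p6, which run from 250 bases before to 50 bases after a gene's start, were given for 29 of the 41 genes (33 windows). The ISRE core was searched on both strands as GAAA, 2 bases of any kind and GAAA, which reads TTTC, any 2 bases and TTTC on the other strand, and the GAS core as TTCNNNGAA, which is the same on both strands. Of the 29 genes, 19 held the ISRE letters in a window, which were in 57.6% of the 33 windows and in 3.44% of all 32851 windows of the same length. GAS letters were in 9 of the 29 genes, in 27.3% of the windows against 8.3% of all windows. Matches can overlap, as in Bst2, where a GAS match overlaps the first of 2 ISRE matches. A match is a description of letters, not of a binding site.

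The stretches below carry the ISRE letters of genes that the results turn on, with Ifit1 and Gbp7 as examples of the IFIT and GBP families and with the Ifit3 and Ifit3b pair for their likeness. Each is written from 5′ to 3′ on the strand of the gene, upstream of the RefSeq start, with the ISRE matches in capitals.
Rsad2 (chr12:26456543-26456592, minus strand, 140 to 91 bases before the start): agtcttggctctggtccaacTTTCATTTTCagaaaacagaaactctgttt
Isg15 (chr4:156200855-156200916, minus strand, 98 to 37 bases before the start): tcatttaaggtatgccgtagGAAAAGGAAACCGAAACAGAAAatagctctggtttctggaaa
Ifit1 (chr19:34640765-34640833, plus strand, 124 to 56 bases before the start): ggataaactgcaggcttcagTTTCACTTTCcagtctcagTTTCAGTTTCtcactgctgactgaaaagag
Ifit3 (chr19:34583353-34583436, plus strand, 176 to 93 bases before the start): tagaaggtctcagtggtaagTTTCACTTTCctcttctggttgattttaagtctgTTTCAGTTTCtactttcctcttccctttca
Ifit3b (chr19:34607749-34607832, plus strand, 208 to 125 bases before the start): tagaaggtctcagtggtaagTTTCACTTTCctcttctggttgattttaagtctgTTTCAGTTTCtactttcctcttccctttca
Gbp7 (chr3:142530263-142530312, plus strand, 73 to 24 bases before the start): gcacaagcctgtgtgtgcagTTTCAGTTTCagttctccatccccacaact
Oas1a (chr5:120907526-120907565, minus strand, 40 to 1 bases before the start): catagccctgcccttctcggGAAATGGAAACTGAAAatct
Stat2 (chr10:128270256-128270305, plus strand, 242 to 193 bases before the start): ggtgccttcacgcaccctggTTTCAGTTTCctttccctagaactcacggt
Bst2 (chr8:71537567-71537622, minus strand, 150 to 95 bases before the start): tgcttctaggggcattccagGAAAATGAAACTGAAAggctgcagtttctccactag

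The stretches of Ifit3 and Ifit3b held the same letters at different distances from their starts, and the transcripts of these neighbouring genes were 97.8% identical over 1700 aligned bases. Isg15 held 3 overlapping ISRE matches in a run. Rsad2 held 1 match, 120 bases before its start. The window of Ifi35 held GAS letters but no ISRE letters, and those of Irf7, Irf9, Ifi44, Xaf1, Dtx3l, Oasl1 and Oasl2 held neither.

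**Figure D1:**
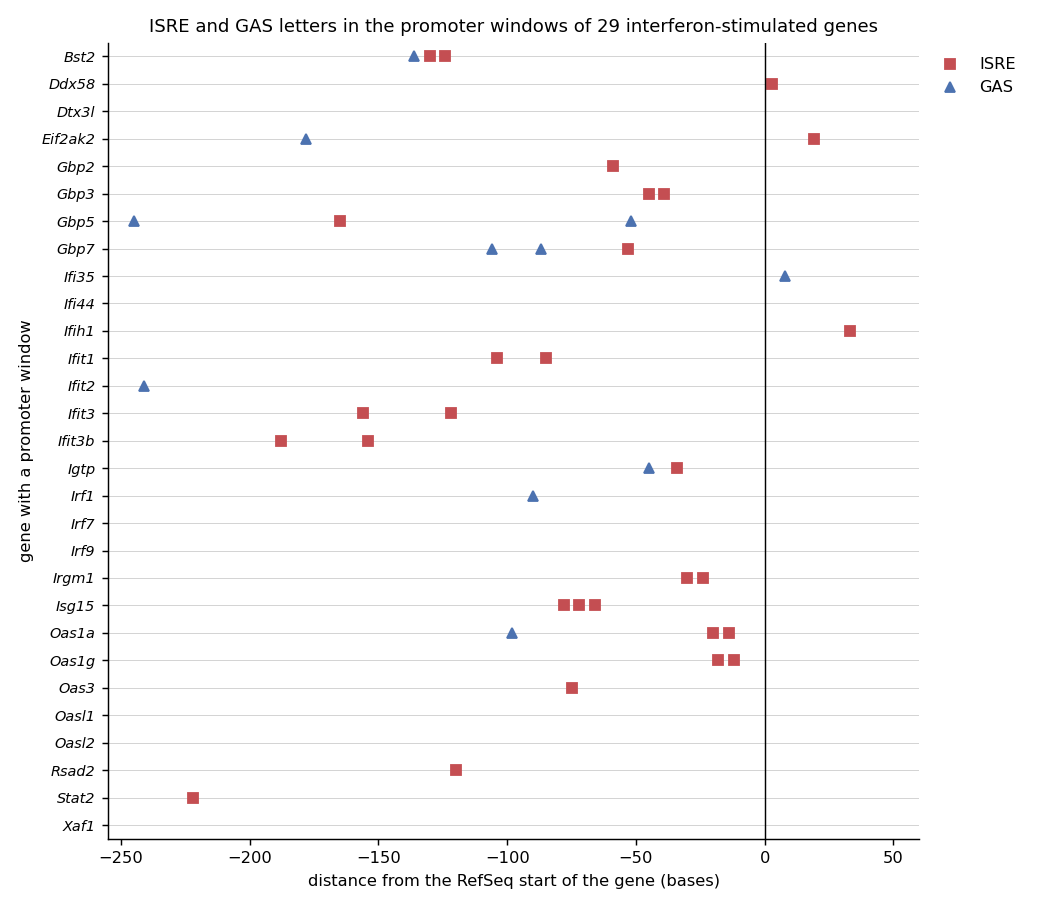
Distance from the RefSeq start of the gene, in bases, of each ISRE match (squares) and GAS match (triangles) in the promoter windows of 29 interferon-stimulated genes. Matches of 19 genes are ISRE letters, 3 of those genes (Ddx58, Eif2ak2 and Ifih1) hold them after the start, and 7 genes have no symbol in their row.

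Reads were counted on genes at 15761789 to 21318254 per ovary, and the 41 genes took between 12 reads (Mx1) and 5843 reads (Bst2) in an ovary. Levels are given as CPM, counts scaled to the size of the library by edgeR's TMM method, and levels of different genes are compared only as FPKM, the deposited value per kilobase of gene. Markers of oocytes and granulosa cells, summed over their lists, were present in every ovary at 70.5 CPM or more and at 2900 CPM or more. Leukocyte markers (Ptprc, Coro1a, Laptm5, Cd53 and Cd52) summed to 86.6 to 94.7 CPM in Control ovaries, 127 to 309 in Aged ovaries and 127 to 146 in Aged+CF ovaries. Control 33, at 409 CPM, and Aged 34, at 347 CPM, stood apart by the sum of their oviduct markers, where the other 8 ovaries had 3.74 to 69.9. Aged 34 also had the highest sums of the leukocyte, T cell (40.9 CPM) and B cell (46.9 CPM) lists. Aged 33 had the highest sums of the endothelial (698 CPM), erythroid (638 CPM), theca and interstitial (31200 CPM) and luteal (7740 CPM) lists. It also had the lowest TMM factor (0.871) and the fewest genes with a read (25684). In whole ovaries, a gene's level depends both on how many cells of a type there are and on how much RNA each holds, and fewer cells of a type and less RNA per cell cannot be told apart.

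On the FPKM scale, the genes spanned a wide range in Control ovaries. Bst2, which encodes tetherin, a membrane protein that holds budding viruses to the cell, had the highest level at a mean of 187 FPKM. Ifi27, a gene of a small mitochondrial protein, followed at 47.4 FPKM and Gbp2, a guanylate-binding GTPase, at 12.1. Isg15, a ubiquitin-like modifier, had 8.2 FPKM, and Mx1 had the lowest level at 0.174. In Control, 32 of the 41 genes reached a mean of 1 FPKM, and in Aged and in Aged+CF 34 did. The median over the 41 genes was 2.52 FPKM in Control ovaries, 3.23 in Aged ovaries and 2.68 in Aged+CF ovaries.

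Aged and Control ovaries were compared to see how the genes stood with age. Of the 41 genes, 36 were above 0 in log2 fold change, where 49.9% of all genes tested were, and their median log2 fold change was 0.26 against 0 for all genes. Within groups, the ovaries' median deviation from the group means over the 41 genes had a pooled SD of 0.23 in log2 CPM. The genes went partly together within an ovary, so in any comparison a count above 0 is not one of independent genes. Without Aged 34, 30 of the 41 were above 0 and the median was 0.14, and without both Aged 34 and Control 33 these were 26 and 0.10, with 49.8% of all genes above 0. A gene was called at a fold change of at least 1.5 with an adjusted p under 0.05 in edgeR's quasi-likelihood test. Rsad2 was the only one of the 41 called in this way, higher in Aged, where 11.1% of all genes tested were called (5% higher and 6.06% lower). With the unadjusted p, Rsad2, Ifit3b and Ifi44 were called, all higher, and none lower, where 18.2% of all genes were called, 8.79% higher. With all 10 ovaries, the share of called genes was thus below that of all genes under both rules. Values did not overlap between the groups for 4 of the 41 genes (Rsad2, Ifi35, Ifi27 and Stat2), all higher in Aged, against 27.5% of all genes (11.8% higher). For 7 genes the 95% interval of the fold change lay wholly within 1.5-fold in either direction, as it did for 32.4% of all genes, so that larger changes of the other 34 were not bounded at this depth and number of ovaries. The count at adjusted p was 6 without Aged 31 (14.6% of the 41, against 8.92% of all genes in that fit), 4 without Aged 34 (9.76% against 16.1%), 2 without Aged 33 or without Control 34 (4.88% against 9.09% and 5.8%), and 4 with DESeq2's Wald test (9.76% against 14.6%). With the unadjusted p it was 8 without Control 31 (19.5% against 18%), 7 without Aged 31 or Aged 33 (17.1% against 18.5% and 17.2%) and 5 without Aged 34 (12.2% against 22.1%). The share was thus above that of all genes in the fit without Aged 31 at adjusted p and in the fit without Control 31 at unadjusted p. All 5 leukocyte markers were also called higher in Aged at adjusted p. So were 5 of 5 erythroid, 4 of 6 endothelial, 4 of 6 theca and interstitial and 4 of 5 luteal markers. Of 15 oocyte markers, 12 were called lower. The part of these cell types in the rise of Rsad2 and in the direction of the other genes was not tested.

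**Figure D2:**
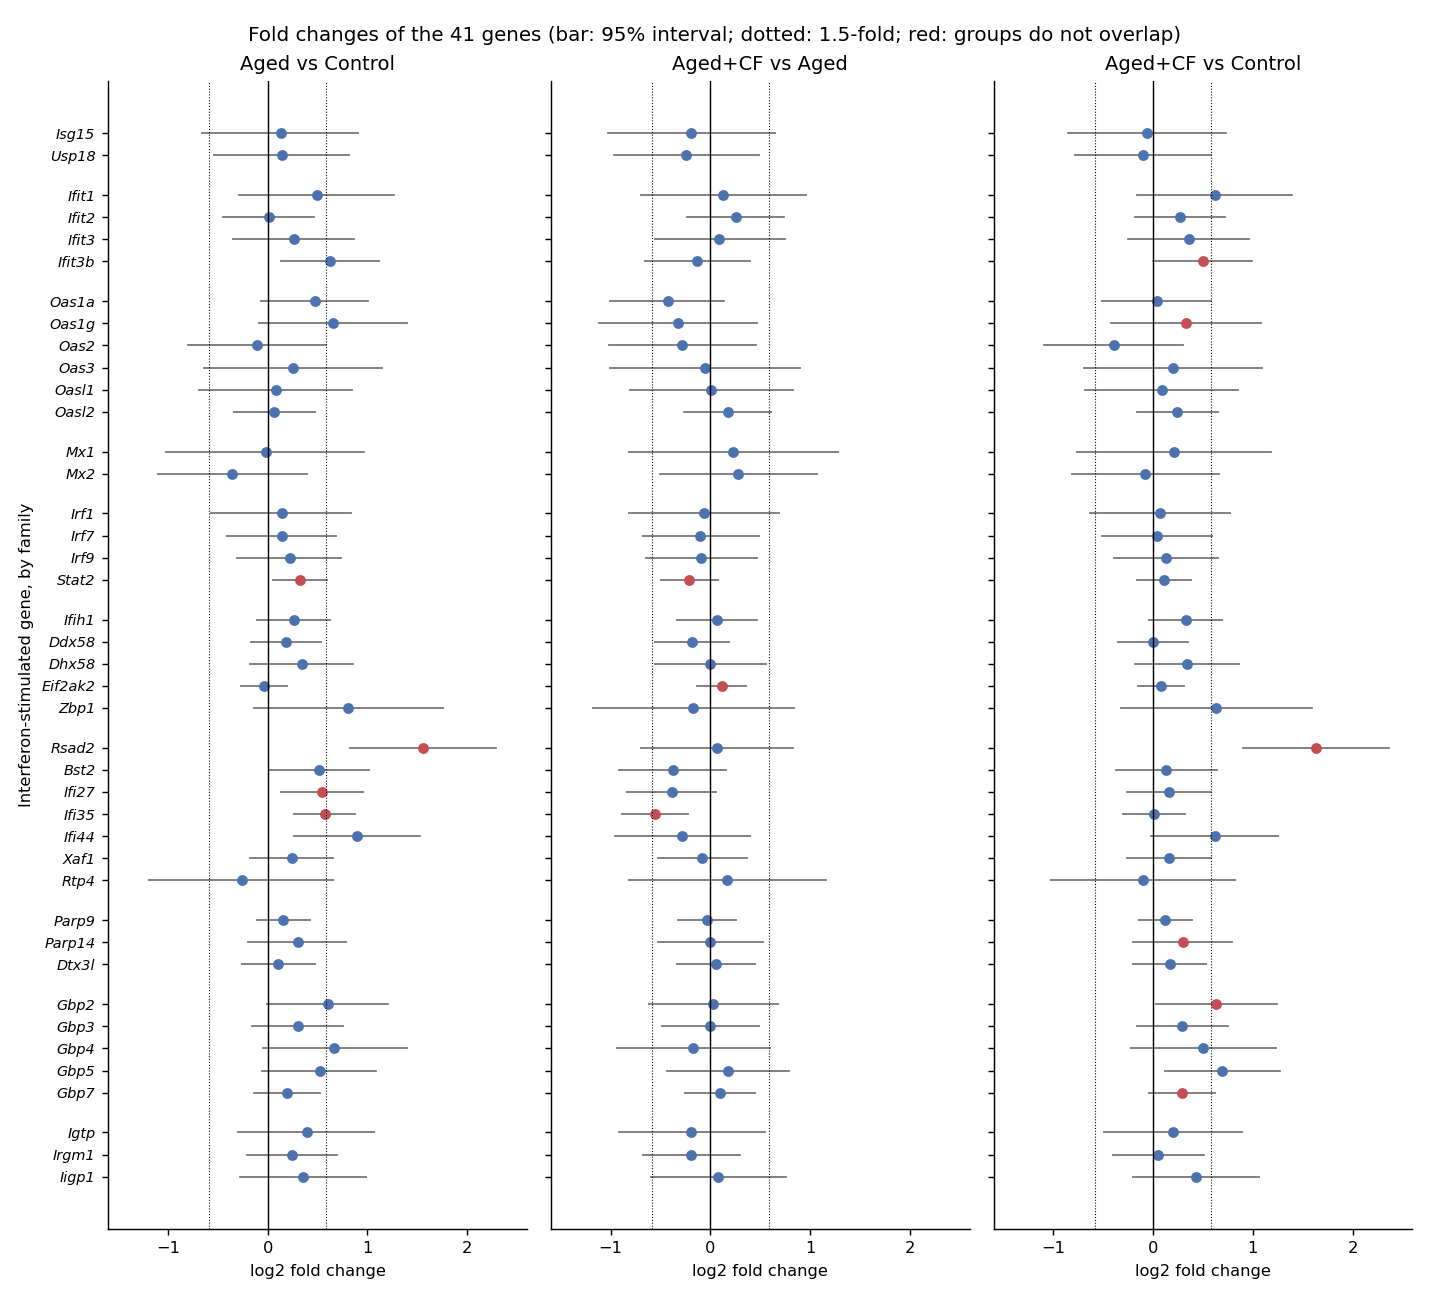
Log2 fold change of each of the 41 genes in the 3 comparisons, by family, with its 95% interval, a dotted line at 1.5-fold and red points where the ovaries of the compared groups did not overlap. Points sit mostly to the right of 0 in Aged vs Control (36 of 41) and Aged+CF vs Control (35 of 41) and on both sides of 0 in Aged+CF vs Aged (16 above 0), with Rsad2 farthest to the right against Control.

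Rsad2 encodes viperin, a radical SAM enzyme that makes a chain-terminating nucleotide against viral polymerases (ENSMUSG00000020641, GRCm38 chr12:26442746-26456452, minus strand). It was at 9.05, 3.43, 6.44 and 5.67 CPM in the Control ovaries 31, 32, 33 and 34, at 11.5, 19.6 and 23.4 CPM in the Aged ovaries 31, 33 and 34, and at 21.4, 21.4 and 14.4 CPM in the Aged+CF ovaries 30, 32 and 34. Every ovary of either aged group was above every Control ovary, and the Aged and Aged+CF ovaries overlapped. The log2 fold change was 1.56 (SE 0.33) in Aged vs Control, a fold of 2.95 with a 95% interval of 1.78 to 4.89 (edgeR, adjusted p = 0.0148). Aged+CF vs Control gave 1.63 (SE 0.33, edgeR, adjusted p = 0.0895), and Aged+CF vs Aged gave 0.07 (SE 0.34, edgeR, adjusted p = 0.941). Without Aged 34, the log2 fold change of Rsad2 in Aged vs Control was 1.37 (edgeR, adjusted p = 0.0219), and without both Aged 34 and Control 33 it was 1.39 (edgeR, adjusted p = 0.0425). The fold difference was thus present without the ovaries that stood apart in oviduct and lymphocyte markers.

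Ifi35 encodes a leucine zipper protein that pairs with NMI and modulates innate signals (chr11:101448407-101458698, plus strand). Its level was 22.5, 22.8, 20 and 24.7 CPM in Control ovaries, 30, 40.0 and 30.1 in Aged ovaries and 19.7, 23.9 and 24.4 in Aged+CF ovaries. The 3 Aged ovaries were the highest of all 10, and Control and Aged+CF covered the same range. In Aged vs Control its log2 fold change was 0.57 (SE 0.14, edgeR, adjusted p = 0.0246), a fold of 1.48 that is just under the 1.5 set for a call. In Aged+CF vs Aged it was -0.56 (SE 0.15, edgeR, adjusted p = 0.171), the lowest p of the 41 genes in that comparison. An antisense transcript overlaps exons of Ifi35, and the counting is not stated to use strand, so reads of both cannot be told apart.

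Ifi27 stood at 129, 114, 101 and 125 CPM in Control ovaries, 130, 236 and 148 in Aged ovaries and 116, 140 and 136 in Aged+CF ovaries. The lowest Aged ovary was only just above the highest Control ovary, and 1 ovary, Aged 33, was well above the rest. Its log2 fold change was 0.54 (SE 0.19, edgeR, adjusted p = 0.0772) in Aged vs Control and -0.39 (SE 0.20, edgeR, adjusted p = 0.366) from Aged to Aged+CF.

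Bst2 had 229, 200, 206 and 181 CPM in Control ovaries, 278, 412 and 183 in Aged ovaries and 191, 235 and 244 in Aged+CF ovaries. Here too Aged 33 was the highest ovary, while Aged 34 was within the range of Control. The log2 fold change was 0.51 (SE 0.23, edgeR, adjusted p = 0.151) in Aged vs Control and -0.38 (SE 0.24, edgeR, adjusted p = 0.459) from Aged to Aged+CF. Without Aged 34, Bst2 and Ifi27 were called at adjusted p in Aged vs Control together with Rsad2 and Ifi35, 4 of the 41 genes, and 16.1% of all genes were called.

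The remaining effectors include Ifi44, of a protein that curbs cell growth, and Xaf1, of a partner of XIAP in cell death. Ifi44 had a mean of 4.94 ± 1.07 CPM (SD, n = 4) in Control and 9.21 ± 2.96 (n = 3) in Aged, a log2 fold change of 0.90 (SE 0.28, edgeR, adjusted p = 0.0591), and a mean of 7.57 ± 2.04 (n = 3) in Aged+CF. One Aged ovary, at 5.79 CPM, lay below the highest Control ovary, so the groups overlapped. Xaf1 and Rtp4, a chaperone of receptors, had log2 fold changes of 0.24 and -0.26 in Aged vs Control (edgeR, adjusted p = 0.43 and 0.716).

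**Figure D3:**
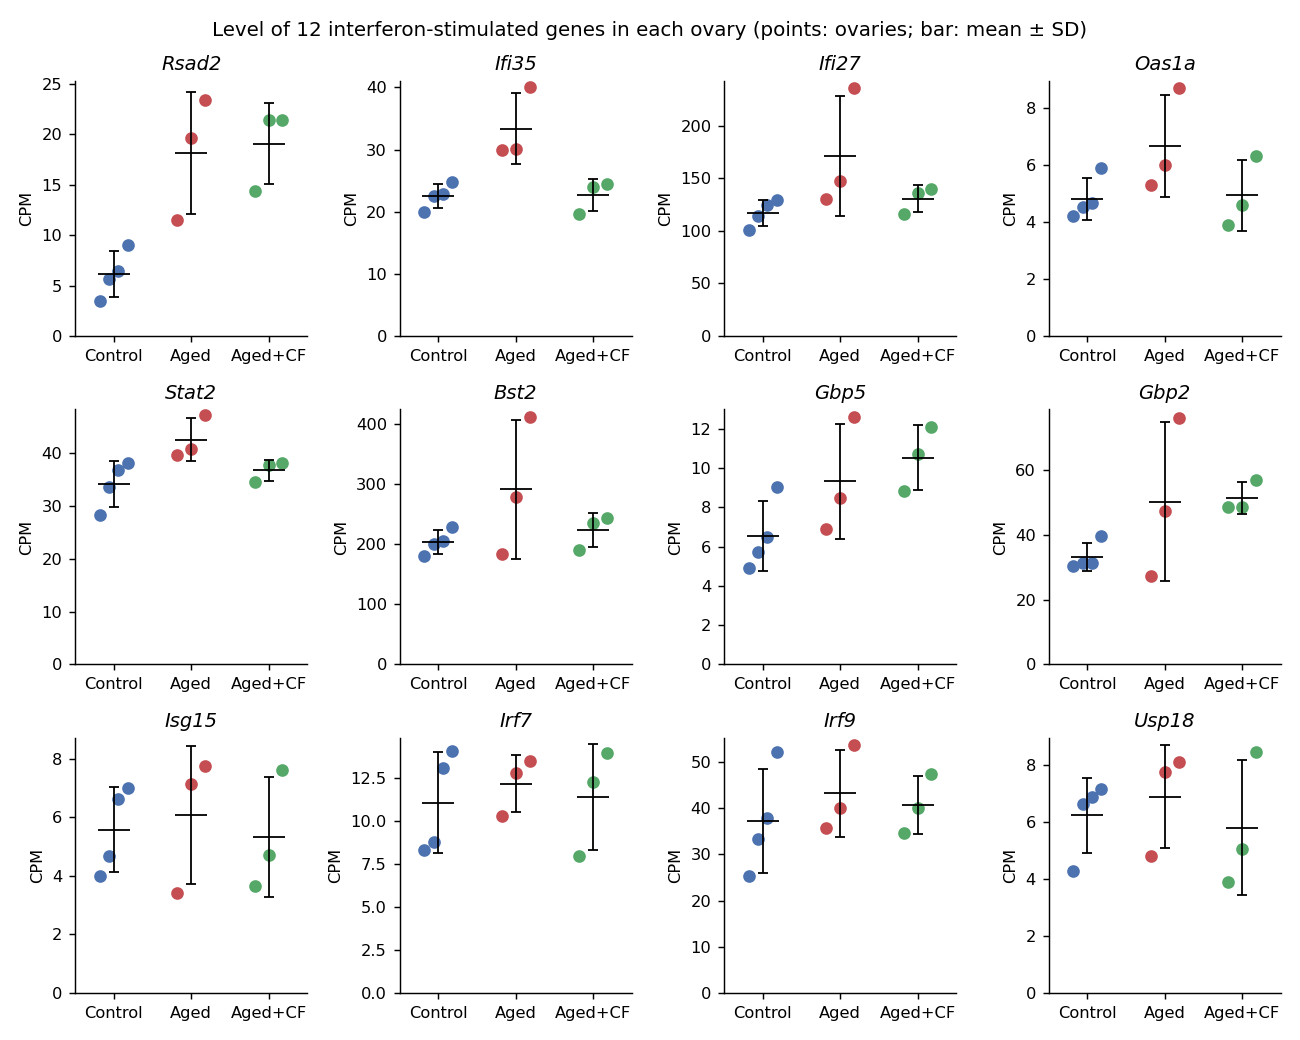
CPM of 12 interferon-stimulated genes in each of the 10 ovaries, by group, with the mean and SD as bars. Rsad2 is higher in all 6 ovaries of the aged groups than in Control, Ifi35 is highest in the 3 Aged ovaries, and the groups overlap for Isg15, Irf7, Irf9 and Usp18.

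None of the 4 transcription factors was called in any comparison. Stat2, which binds IRF9 in the ISRE-binding complex, had 36.8, 28.2, 33.5 and 38.1 CPM in Control ovaries, 39.6, 47.3 and 40.8 in Aged ovaries and 34.5, 38.1 and 37.7 in Aged+CF ovaries. All 3 Aged ovaries were above all others, by a small margin over the highest of them. The log2 fold change of Stat2 was 0.32 (SE 0.12, edgeR, adjusted p = 0.101) in Aged vs Control and -0.21 (SE 0.13, edgeR, adjusted p = 0.439) from Aged to Aged+CF.

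Irf9, the DNA-binding part of that complex, was at 33.4, 37.9, 25.3 and 52.2 CPM in Control ovaries, 35.8, 53.8 and 40.1 in Aged ovaries and 40.0, 47.4 and 34.7 in Aged+CF ovaries. The groups overlapped in each comparison, with log2 fold changes of 0.22 (SE 0.23) in Aged vs Control and -0.09 (SE 0.25) from Aged to Aged+CF (edgeR, adjusted p = 0.574 and 0.888). Exons of Rnf31 overlap those of Irf9 on the same strand, so a part of its reads may belong to Rnf31.

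Irf7, the factor that amplifies type I interferon production, had 14.1, 8.35, 8.82 and 13.1 CPM in Control ovaries, 10.3, 12.8 and 13.5 in Aged ovaries and 7.97, 14.0 and 12.3 in Aged+CF ovaries. The groups covered nearly the same range, and the log2 fold changes were 0.14 (SE 0.25) in Aged vs Control, -0.10 (SE 0.26) from Aged to Aged+CF and 0.04 (SE 0.25) from Control to Aged+CF. Exons of Phrf1 overlap those of Irf7 on the opposite strand, so a part of its reads may belong to Phrf1 if strand was not used. Irf1, a factor of the interferon gamma response, had a mean of 33 ± 10.7 CPM (SD, n = 4) in Control ovaries, 36.3 ± 6.51 (n = 3) in Aged ovaries and 34.7 ± 16.9 (n = 3) in Aged+CF ovaries.

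ISG15 and its protease USP18 form a pair, in which the first is attached to new proteins and the second removes it and damps the receptor. Isg15 had 7, 4.68, 4.01 and 6.63 CPM in Control ovaries, 3.40, 7.13 and 7.77 in Aged ovaries and 3.67, 4.71 and 7.64 in Aged+CF ovaries. Each group held ovaries near 4 CPM and near 7 CPM, and the lowest ovary of all was an Aged one. The log2 fold change of Isg15 was 0.13 in Aged vs Control, with a 95% interval of -0.66 to 0.91. It was -0.19 in Aged+CF vs Aged, with an interval of -1.03 to 0.65. A rise of up to 0.91 with age and a fall of up to 1.03 after CEFFE were thus not excluded. Usp18 had 6.89, 4.30, 6.64 and 7.16 CPM in Control ovaries, 4.83, 7.76 and 8.11 in Aged ovaries and 3.90, 5.05 and 8.48 in Aged+CF ovaries. Its values followed those of Isg15 in Aged and Aged+CF ovaries, with the lowest ovary of each group the same for both genes.

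The IFIT proteins bind viral RNA that lacks the host cap. All 4 Ifit genes were above 0 in Aged vs Control, with a median log2 fold change of 0.37, and all 4 in Aged+CF vs Control, with a median of 0.43, while in Aged+CF vs Aged the median was 0.11. Ifit3b was called only with the unadjusted p (log2 fold change 0.63, SE 0.22, edgeR, adjusted p = 0.0846), from a mean of 3.17 ± 0.338 CPM (SD, n = 4) in Control and 4.90 ± 1.36 (n = 3) in Aged. Ifit3, its near copy, gave 0.26 (SE 0.27), and reads that fit both genes may have been split between them. Without Aged 34, 2 of the 4 Ifit genes were above 0 in Aged vs Control, with a median of 0.09, and the median in Aged+CF vs Aged was 0.41.

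The OAS enzymes sense double-stranded RNA and make the messenger that activates RNase L. Oas1a had 5.89, 4.55, 4.21 and 4.66 CPM in Control ovaries, 6.02, 5.29 and 8.71 in Aged ovaries and 3.90, 4.59 and 6.33 in Aged+CF ovaries. Aged ovaries were at the upper end and the groups overlapped. The log2 fold change of Oas1a was 0.47 (SE 0.24, edgeR, adjusted p = 0.216) in Aged vs Control and -0.43 (SE 0.26, edgeR, adjusted p = 0.43) from Aged to Aged+CF. Oas1g, whose transcript is 97.6% identical to that of Oas1a, gave 0.66 (SE 0.33) and -0.32 (SE 0.36). Over the 6 genes of the family, 5 were above 0 in Aged vs Control (median 0.17) and 2 in Aged+CF vs Aged (median -0.17), and none was called. Without Aged 34 it was 3 in each, with medians of 0.06 and 0.

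Mx1 and Mx2 differed from the other families in that neither was above 0 in Aged vs Control, at -0.02 and -0.36 (SE 0.45 and 0.33), with the sign of Mx1 turning under the size factors of DESeq2. Both have few reads, at a mean of 1.11 and 2.99 CPM in Control, as do Oas3, Oas1g, Oasl1 and Zbp1, which had a lower mean CPM than Mx2 there. The difference between the families was not tested.

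Among the sensors of viral nucleic acid, Ddx58 (RIG-I), Ifih1 (MDA5) and Dhx58 (LGP2) had log2 fold changes of 0.18, 0.26 and 0.34 in Aged vs Control, and none was called. Zbp1, a sensor of left-handed nucleic acid that can start necroptosis, had 0.81 with the widest error of them (SE 0.43, edgeR, adjusted p = 0.229). Eif2ak2, the kinase PKR that halts translation, was at -0.04 (SE 0.10) in Aged vs Control. After CEFFE, its 3 Aged+CF ovaries, at 37.2 to 40.4 CPM, lay above the 3 Aged ovaries, at 34 to 35.9, a log2 fold change of 0.12 (SE 0.11, edgeR, adjusted p = 0.613). For 4 of these 5 genes the 95% interval in Aged+CF vs Aged lay within 1.5-fold.

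Parp9, Parp14 and Dtx3l, of ADP-ribosylation and of a partner ubiquitin ligase, had log2 fold changes of 0.10 to 0.30 in Aged vs Control and of -0.03 to 0.06 in Aged+CF vs Aged, where all 3 intervals lay within 1.5-fold. Without Aged 34, 1 of the 3 was above 0 in Aged vs Control. Exons of Parp9 and Dtx3l overlap on opposite strands.

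The guanylate-binding proteins coat and break the compartments of microbes inside cells. All 5 Gbp genes were above 0 against Control, in Aged with a median log2 fold change of 0.52 and in Aged+CF with a median of 0.50, and none was called at adjusted p. Without Aged 34, the median in Aged vs Control was 0.21. Gbp2 had 39.7, 31.4, 30.3 and 31.3 CPM in Control ovaries, 47.2, 27.4 and 76.1 in Aged ovaries and 48.4, 57.0 and 48.6 in Aged+CF ovaries. The 3 Aged+CF ovaries were close together and above all Control ovaries, whereas the Aged ovaries included both the lowest and the highest value of all 10. Its log2 fold change was 0.60 (SE 0.27, edgeR, adjusted p = 0.162) in Aged vs Control and 0.63 (SE 0.27, edgeR, adjusted p = 0.332) in Aged+CF vs Control.

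Gbp5, which also promotes inflammasome assembly, had 9.05, 5.74, 4.92 and 6.47 CPM in Control ovaries, 8.47, 6.91 and 12.6 in Aged ovaries and 8.83, 10.7 and 12.1 in Aged+CF ovaries. Aged+CF ovaries reached from just under the highest Control ovary upwards. The log2 fold change of Gbp5 was 0.69 (SE 0.26, edgeR, adjusted p = 0.277) in Aged+CF vs Control and 0.18 (SE 0.28, edgeR, adjusted p = 0.783) from Aged to Aged+CF. Gbp4, Gbp3 and Gbp7 had 0.67, 0.30 and 0.19 in Aged vs Control. The reads of Gbp4 are uncertain, because its transcript is 90.7% identical to that of Gbp11 over 53.7% of its length. Exons of Gbp8 and Gbp9 also overlap those of Gbp4 on the same strand.

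The immunity-related GTPases Igtp, Irgm1 and Iigp1, which attack the vacuoles of parasites, had log2 fold changes of 0.39, 0.24 and 0.35 in Aged vs Control and of -0.19, -0.19 and 0.08 in Aged+CF vs Aged. None of the 3 was called. The highest Aged+CF ovary for all 3 was Aged+CF 34, and the highest Aged ovary was Aged 34. Without Aged 34, the median of the 3 went from 0.35 to 0.13 in Aged vs Control, and from -0.19 to 0.09 in Aged+CF vs Aged, where all 3 were then above 0.

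Aged+CF and Aged ovaries were compared to see whether the treatment moved the genes. None of the 41 was called, with the adjusted p, where 0.00528% of all genes tested were called (1 gene), or with the unadjusted p, where 7.96% were. DESeq2's Wald test also called none, where it called 2.33% of all genes at adjusted p and 8.42% at unadjusted p. Ifi35 had a log2 fold change of -0.56 there (DESeq2's Wald test, adjusted p = 0.0219), under the 1.5-fold of a call. In edgeR, 1 gene, Ifi35, had an unadjusted p under 0.05 at any fold, where 16.3% of all genes had. Of the 41 genes, 16 were above 0, where 47.4% of all genes were, and the median log2 fold change was -0.05 against -0.02 for all genes. Values did not overlap for Eif2ak2, higher in Aged+CF, and for Stat2 and Ifi35, lower, against 18.6% of all genes (10.2% higher and 8.39% lower). The 95% interval lay within 1.5-fold for 11 of the 41 genes and for 34.5% of all genes, so that a change of that size was bounded for 11 and not for the other 30. The sign of the median depended on single ovaries, since 30 of the 41 genes were above 0 without Aged 34, with a median of 0.09, and 23 without Aged+CF 30, with a median of 0.03. With the unadjusted p, 2 genes (4.88%) were called without Aged 31 (Oas1g and Ifi35), without Aged 34 (Bst2 and Ifi35) or without Aged+CF 34 (Oas1a and Ifi35), where 9.53%, 12.2% and 5.95% of all genes were called, and 1 (2.44%) without Aged+CF 32 (Ifi35), where 7.63% were. All these were lower in Aged+CF.

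The third comparison, Aged+CF vs Control, uses ovaries that also entered the other comparisons, and its values are therefore given without a count of what they have in common. None of the 41 genes was called at adjusted p, where 0.179% of all genes were (34 genes). At any fold, 4 (9.76%) had an unadjusted p under 0.05 in edgeR, where 14.3% of all genes had. Rsad2, Gbp2 and Gbp5 were called with the unadjusted p, all higher in Aged+CF, where 7.69% of all genes were called, 3.33% higher. DESeq2's Wald test called Rsad2 at adjusted p, where it called 2.79% of all genes. With the unadjusted p, 5 genes were called without Control 31 (12.2%, against 7.95% of all genes in that fit), and 1 (2.44%), Rsad2, without Control 32, Control 33 or Aged+CF 32, where 5.57%, 7.19% and 4.38% of all genes were. The median log2 fold change was 0.20 against -0.03 for all genes, and 35 of the 41 genes were above 0, where 45.9% of all genes were. Values did not overlap for 6 genes, Rsad2, Ifit3b, Oas1g, Parp14, Gbp2 and Gbp7, all higher in Aged+CF, against 21.9% of all genes, 9.69% higher.

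Ovaries of 1 group differed from each other over the 41 genes as a whole. Each gene's log2 CPM was set against the mean of its own group, so that ovaries above and below it balance within a group by construction. In Control, 38 of the 41 genes were above their group mean in ovary 31 and 33 in ovary 34, against 4 in ovary 32 and 7 in ovary 33. In Aged, 35 were above it in ovary 34, 18 in ovary 33 and 5 in ovary 31. In Aged+CF, 33 were above it in ovary 34, 22 in ovary 32 and 6 in ovary 30. Over all genes tested, the share above the group mean was between 46.4% and 53.8% in each of the 10 ovaries. The highest value of all 10 ovaries was in Aged 34 for 23 of the 41 genes, and the lowest in Control 32 for 22.

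**Figure D4:**
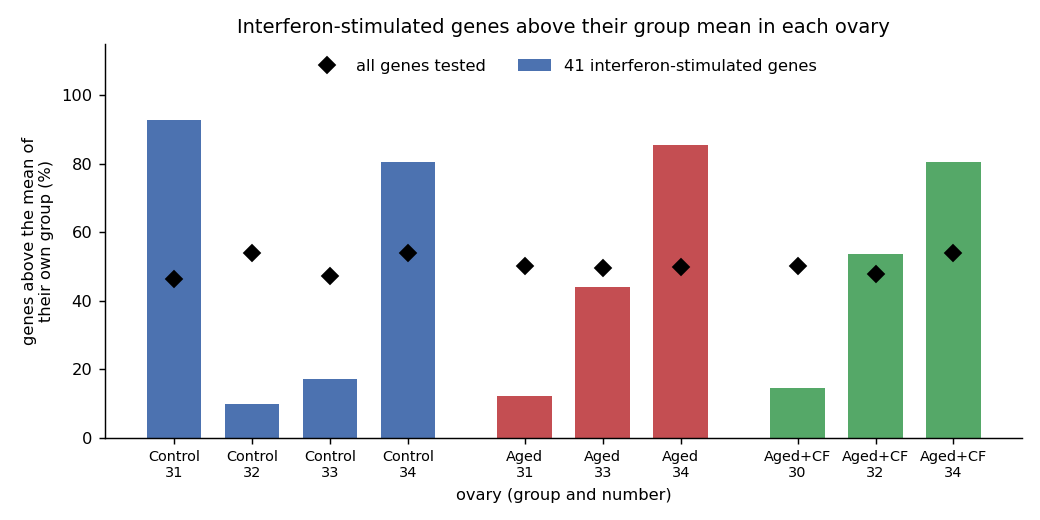
Percent of genes above the mean of their own group in each ovary, for the 41 interferon-stimulated genes (bars) and for all genes tested (diamonds). Bars run from 9.76% in Control 32 to 92.7% in Control 31, while the diamonds stay between 46.4% and 53.8%.

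Families within an ovary went partly together. In Aged 34, all 4 Ifit, all 6 Oas, all 5 Gbp and all 3 immunity-related GTPase genes were above the group mean, and in Control 31 the same families were above it for all their genes. The transcription factors did not share this, with 2 of 4 above the mean in both of these ovaries, nor did the Mx genes in Aged 34 (1 of 2). The other effectors also went differently in Aged, where all 7 were above the mean in ovary 33, with 0 of 5 Gbp genes, and 4 in ovary 34. In Aged+CF 32, all 5 sensors were above it and 0 of 3 immunity-related GTPase genes. All 5 leukocyte markers were above the group mean in Aged 34 too, and in Control they were above it for 3 of 5 in ovary 31 and for 4 of 5 in ovary 32. The part of leukocytes in these differences between ovaries was not tested. The difference between the Aged and Control means was larger than the pooled SD for 18 of the 41 genes (43.9%, against 54.5% of all genes), and that between the Aged+CF and Aged means for 6 (14.6%, against 44.3%).

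The ligands of the pathway were hardly read in these ovaries. The 21 interferon genes of the list took 8, 1, 7 and 2 reads in all in the Control ovaries, 23, 24 and 17 in the Aged ovaries and 8, 4 and 6 in the Aged+CF ovaries, so every Aged ovary was above the other 7. Of the 21 genes, 11 had no read in any ovary, and none passed the filter on low counts. Ifnb1 had 0 reads in all 10 ovaries, and a count of 0 allows up to 3 reads in an ovary, for counting error only. Ifng had 0 to 7 reads, with 7 in Aged 34 and 4 in Control 31. Ifnl3, of an interferon lambda, had 18 and 19 reads in Aged 31 and Aged 33 and 0 to 3 in each of the other ovaries.

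The receptors, in contrast, were well read, and all 6 were above 0 in Aged vs Control. Ifngr1, the ligand-binding chain for interferon gamma, rose from 26.3, 37.2, 29.6 and 32.2 CPM in Control to 44.6, 72.7 and 48.1 in Aged ovaries, with 34.3, 41.8 and 35.0 in those of Aged+CF mice. Its change on the log2 scale was 0.82 (SE 0.18, edgeR, adjusted p = 0.0177) in Aged vs Control, and -0.57 (SE 0.19, edgeR, adjusted p = 0.217) from Aged to Aged+CF, where the groups did not overlap. Il10rb, a chain shared by the receptors of interferon lambda and interleukin-10, was also called higher in Aged (log2 fold change 1.06, SE 0.23, edgeR, adjusted p = 0.0164). Of the type I receptor, Ifnar1 had 0.04 (SE 0.09) and Ifnar2 0.33 (SE 0.10, edgeR, adjusted p = 0.0439, under the 1.5-fold of a call), and Ifngr2 had 0.02 (SE 0.09).

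Among the kinases and factors behind the receptors, Jak1 was lower in Aged at 456, 434 and 368 CPM against 527 to 630 in Control, a log2 fold change of -0.50 (SE 0.12, edgeR, adjusted p = 0.0252) that did not reach 1.5-fold. Tyk2 was at -0.01 (SE 0.09). None of the 14 genes of upstream sensing was called at adjusted p in Aged vs Control, and Irf3, the factor that starts interferon transcription, had 0.22 (SE 0.10, edgeR, adjusted p = 0.174).

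Of 10 genes that restrain or tune the response, Ptpn6, which encodes the phosphatase SHP-1 of blood cells, was the only one called at adjusted p in Aged vs Control. It had 11.6, 12.8, 14.1 and 11.7 CPM in Control ovaries, 27.3, 23.0 and 27.6 in Aged ovaries and 13.4, 17.0 and 15.5 in Aged+CF ovaries. Aged ovaries did not overlap with those of either other group, and the log2 fold changes were 1.05 (SE 0.13, edgeR, adjusted p = 0.00399) in Aged vs Control and -0.76 (SE 0.14, edgeR, adjusted p = 0.15) from Aged to Aged+CF.

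A list of 53 further interferon-stimulated genes that were tested had a median log2 fold change of 0.48 in Aged vs Control, with 13 called higher and 1 lower at adjusted p, where 5% of all genes were called higher. Those with the lowest p among the higher ones were Slfn5 (0.81), Samd9l (0.86), Isg20 (1.01) and Ly6a (1.34), with adjusted p between 0.00949 and 0.0173 in edgeR. Slfn5 belongs to the Schlafen family, Samd9l encodes a translation inhibitor, Isg20 an exonuclease of RNA, and Ly6a the surface antigen Sca-1. Oas1c was the 1 called lower, at 18.3 to 26.1 CPM in Control ovaries, 2.54 to 7.83 in Aged ovaries and 7.29 to 12.1 in Aged+CF ovaries, a log2 fold change of -2.10 (SE 0.34, edgeR, adjusted p = 0.00733). Its change was opposite to that of Oas1a and Oas1g in sign, and the oocyte markers moved with it, at 534 to 710 CPM in Control ovaries, 70.5 to 182 in Aged ovaries and 245 to 359 in Aged+CF ovaries, their part in its change not being tested. Without Aged 34, the list had 8 genes called higher and 3 lower at adjusted p, where 16.1% of all genes were called, and a median of 0.30.

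The list of interferon gamma targets in antigen presentation and chemokines had 20 genes tested, and all 20 were above 0 in Aged vs Control. At adjusted p, 8 were called higher (40%), where 5% of all genes were. The median was 0.58. B2m, the light chain of MHC class I, had 230, 239, 203 and 241 CPM in Control ovaries, 362, 490 and 509 in Aged ovaries and 253, 278 and 307 in Aged+CF ovaries. The 3 groups of B2m did not overlap. Its log2 fold change was 0.99 (SE 0.13, edgeR, adjusted p = 0.00488) in Aged vs Control and -0.70 (SE 0.14, edgeR, adjusted p = 0.15) from Aged to Aged+CF. H2-Aa and H2-Eb1, chains of MHC class II, Cd74, its invariant chain, and H2-K1, a class I heavy chain, had 1.33, 1.24, 1.31 and 0.84 in Aged vs Control.

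From Aged to Aged+CF, 19 of these 20 genes were below 0, with a median of -0.45, and 5 were called lower with the unadjusted p, where 4.05% of all genes were, and none with the adjusted p. The genes of MHC class II are expressed mainly by macrophages, dendritic cells and B cells. Of the 10 macrophage markers, 3 were called higher in Aged vs Control at adjusted p and none lower, where 5% of all genes were called higher. Their sums were 339 to 392 CPM in Control ovaries, 452 to 701 in Aged ovaries and 429 to 545 in Aged+CF ovaries. Of the 5 B cell markers tested, 3 were called higher in Aged vs Control at adjusted p (median 2.31) and all 5 lower in Aged+CF vs Aged with the unadjusted p (median -1.91), with sums of 7 to 8.4 CPM in Control ovaries, 13.3 to 46.9 in Aged ovaries and 8.27 to 12.4 in Aged+CF ovaries. Of 8 dendritic cell markers, 1 was called higher in Aged vs Control (median 0.53), and the median was -0.37 in Aged+CF vs Aged. The part of these cells in the change of this list was not tested. Without Aged 34, 9 of the 20 genes were called higher in Aged vs Control at adjusted p. Over all genes in that fit, 16.1% were called in either direction, against 11.1% with all 10 ovaries. In Aged+CF vs Aged, 14 of the 20 were then below 0, and the medians of the 2 comparisons were 0.60 and -0.20. ISRE letters were in the promoter windows of 3 of 15 genes of this list (20%), against 19 of 29 among the 41 genes (65.5%). Over all genes with a window, the share with ISRE letters was 3.99%. GAS letters were in 1 of the 15 genes (6.67%), against 9 of the 29 and 9.55% of all genes with a window. These shares are given as a description.

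**Figure D5:**
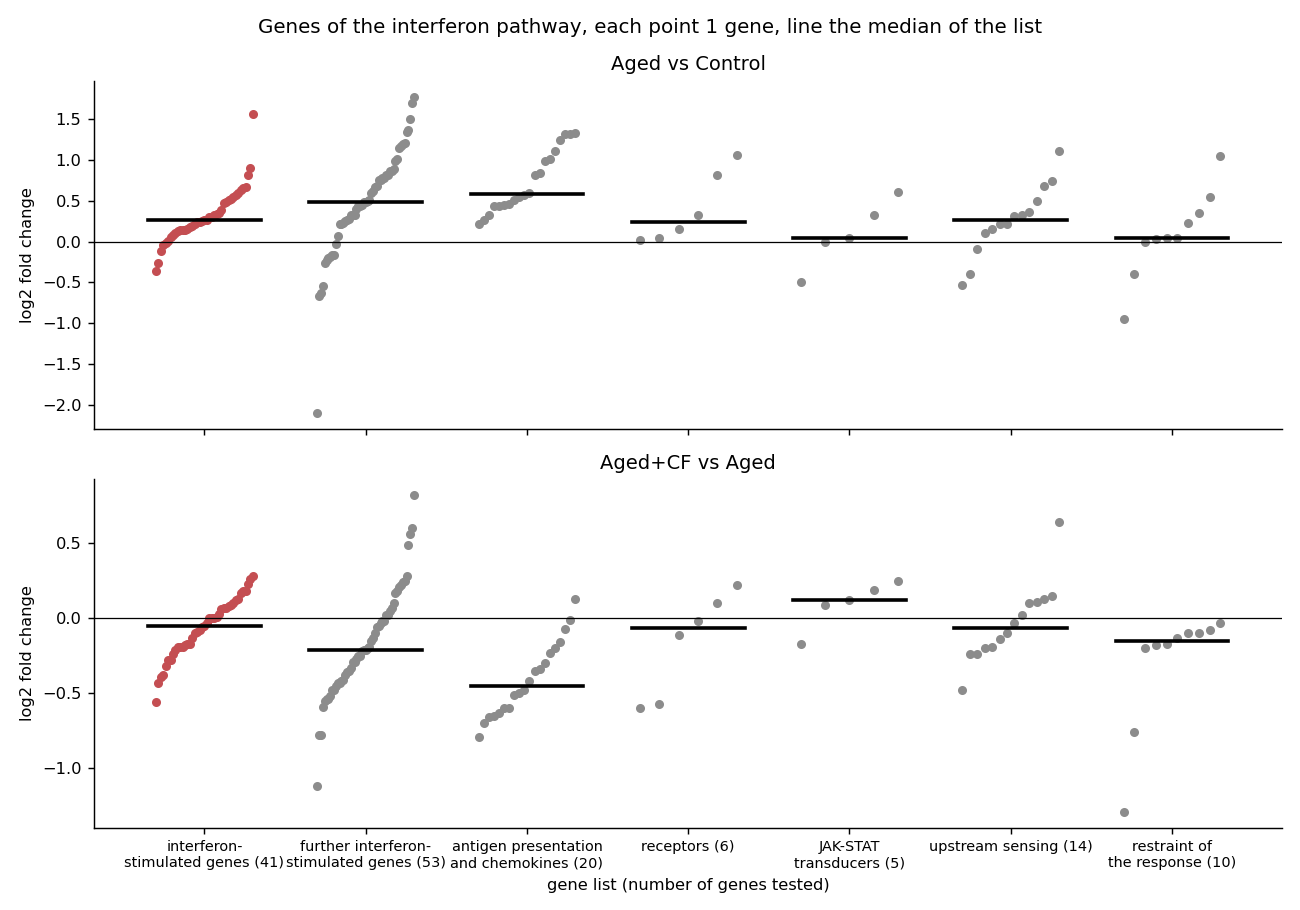
Log2 fold change of every tested gene of the 41 interferon-stimulated genes (red) and of 6 other lists of the pathway (grey), once for Aged vs Control and once for the change from Aged to Aged+CF, with the median of each list as a line. In Aged vs Control the medians are 0.26 for the 41 genes, 0.48 for the further genes and 0.58 for antigen presentation and chemokines, and in Aged+CF vs Aged -0.05, -0.21 and -0.45.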

How the data were processed

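For 10 ovaries, the authors deposited read counts, not normalized, and FPKM values of each gene. Per the labels' processing notes, TopHat, Cufflinks 2.1.1 and GRCm38.p4 were used, without stating which tool counted the reads or whether strand was used. FPKM was used only to compare levels between genes.

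Counts were analysed with edgeR 4.0 in R 4.3: filterByExpr by group, TMM, a quasi-likelihood fit of all 10 ovaries with a mean per group, F tests, and Benjamini-Hochberg adjustment over 18956 genes. The test of the study's sequencing data is not named in its methods, which set a fold of 1.5 with an adjusted p, while the series text uses an unadjusted p, so both were computed. Intervals are at 95%. The p-values come from setting each group difference against the spread between animals within the groups. No pair of libraries within a group was a duplicate. The fit was tested on simulated data. Positions and exon overlaps come from GENCODE M21 (GRCm38), promoter sequences from RefSeq (GRCm38.p6).

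The 41 genes and the other lists were chosen with earlier results of these data known. Values in every ovary are given for genes called at adjusted p in Aged vs Control, for the 5 lowest p in Aged+CF vs Aged and the 3 lowest in the comparison of Aged+CF with Control, and for Isg15, Irf7, Irf9, Stat2 and Usp18. Ifi44, Ifit3b, Eif2ak2 and other members are named within their families. Of other pathway genes, the receptors, Jak1, Tyk2, Ifnb1, Ifng and Irf3 are named whatever their values, with up to 5 called genes a list. Alternatives were no filter, DESeq2's size factors, DESeq2 1.42's Wald test, only the compared groups, a replicate block and leaving out each ovary. Leaving out Control 33 and Aged 34 together was added after the data were seen. One pathway gene that the rule names is not reported here.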

Additional observations from a re-analysis of the deposited data

Results flagged for a closer look

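Of 80 sets of 4 Control values examined (the 41 genes, the summed lists and the named pathway genes), 2 had a Control ovary far from the other 3 by Dixon's ratio, past its 95% critical value for 4 samples, and chance gives such a value in about 1 in 20 groups. Mx1 was at 2.04 CPM in Control 31, where the nearest of the other Control ovaries had 0.862 (ratio 0.912). Gbp2 was at 39.7 CPM in Control 31, where the nearest had 31.4 (ratio 0.883).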

How the results depend on the processing

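No filter on low counts left each count of called genes within 1.5 times and each median on its side of 0. With DESeq2's size factors, 2 genes were called at adjusted p in Aged vs Control (Rsad2 and Ifi35) and 5 at unadjusted p, where 11.3% and 18.6% of all genes were, and with DESeq2's Wald test 4 (also Ifit3b and Ifi44) and 6, where 14.6% and 18.7% were. In Aged+CF vs Control, DESeq2's Wald test called 1 gene at adjusted p (Rsad2) and a fit of only the compared groups 2 (Rsad2 and Gbp2), where 2.79% and 2.63% of all genes were called. Without Control 33 and Aged 34, 3 were called at adjusted p in Aged vs Control (Rsad2, Bst2 and Ifi35) and 2 at unadjusted p in Aged+CF vs Aged (Bst2 and Ifi35), where 14.4% and 12.1% of all genes were called. The cause of these differences was not tested.

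Same-numbered ovaries came from different animals, and over all genes tested the correlations of their deviations ran from -0.18 to 0.15. Of the 41 genes, 33, 35 and 33 were above the group mean in the Control, Aged and Aged+CF ovaries numbered 34. In those numbered 31, 38 were in Control and 5 in Aged. Whether the numbers mark anything shared was not tested, since the correlations are over all genes. With the replicate number as a block, 0 of the 41 genes were called at adjusted p in Aged vs Control (edgeR, 3 with an unadjusted p under 0.05; Rsad2 at 1.52, adjusted p = 0.106), and 80 of all genes (0.422%). The median of Aged+CF vs Aged was 0.06 under the block, with 26 of the 41 genes above 0, and -0.05 without it, with 16 above 0. Aged+CF 30 is the only ovary of its number, so under the block it does not enter the group differences. Leaving that ovary out without a block gave 0.03, with 23 above 0. The block also leaves fewer degrees of freedom, so its counts of calls are not comparable with those of the main fit.

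Leaving out each ovary in turn gave 1 to 6 calls at adjusted p and 2 to 8 at unadjusted p in Aged vs Control, 0 and 0 to 2 in Aged+CF vs Aged, and 0 and 1 to 5 in Aged+CF vs Control. The medians ran from 0.14 to 0.40, from -0.19 to 0.09 and from 0.13 to 0.28. Rsad2 was called at adjusted p in Aged vs Control in each of these 7 fits. The signs of Mx1 in Aged vs Control and of Ddx58 in Aged+CF vs Control turned under DESeq2's size factors. Mx1, with the fewest reads of the 41 genes, had the largest SE in each comparison, and those of Zbp1, Rtp4 and Oas3 came next.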
